A study of Montastraea cavernosa with 311 samples.

Results

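Lipoxygenase (isogroup Mcavernosa04604) and cytosolic phospholipase A2 (isogroup Mcavernosa22551) are 2 host transcripts of the coral Montastraea cavernosa that act on arachidonic acid. They are 2 of 17901 host isogroups, that is, assembled transcript clusters of the coral, in a count table of 31276 isogroups that also holds the transcripts of its algal symbiont Cladocopium. Both were chosen on measured values: the lipoxygenase on its mesophotic against shallow detection at PRTER, and the phospholipase on its mesophotic against shallow level at CBC. Those 2 contrasts are therefore given below as descriptions, without a test.

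Cytosolic phospholipase A2 cuts arachidonic acid from membrane phospholipids when cell calcium rises, and in vertebrates it is the enzyme that starts most eicosanoid synthesis. Lipoxygenases then add oxygen to the freed fatty acid, giving hydroperoxides that are precursors of leukotrienes and related signals. In vertebrates these lipid signals act in inflammation and wound responses. Soft corals are known for high amounts of such oxidised fatty acids, made in part by lipoxygenases fused to an allene oxide synthase. Gene names here are those of the deposited annotation. No sequence was used, so neither product's activity was checked.

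The study sequenced 3′ tags of total RNA from corals, with a count of tags per isogroup in each library. Natural colonies were labelled by site (WFGB, EFGB, PRTER or CBC) and by depth (mesophotic, the deeper reef zone, or shallow); the series' title places the study in the Gulf of Mexico and Belize. At WFGB and EFGB 46 further libraries carry a time label of 6 or 12 and an arm, which is transplant, mesophotic control or shallow control; the unit of time and the depth to which transplants were moved are not given in the labels. Tags in the titles tie 26 of the natural libraries to the same colonies as baselines: the transplants and mesophotic controls began as mesophotic colonies, the shallow controls as shallow ones. No genotype, drug or allele is named for any group. Counting libraries with at least 20000 host counts, WFGB held 28 mesophotic and 35 shallow natural libraries. EFGB held 21 and 39, PRTER 41 and 31, and CBC 22 and 36 of the same kinds. The experiment held 8 transplants, 7 mesophotic controls and 10 shallow controls at time 6, and 5, 6 and 9 at time 12.

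Libraries kept held between 20003 and 1145508 host counts, with a median of 139933. Groups of natural libraries differed widely in the number of host isogroups with a count. The group medians ran from 1244.5 at CBC mesophotic to 4449 at WFGB shallow, whose median host totals were 188602 and 53608 counts. Levels are given in host CPM, a gene's count in a library scaled to a host total of 1000000 counts. Differences are on the log2 scale after adding a prior count of 2. Part of the titles carries what reads as a month and year, written here as in the title (X-14, V-16 and so on); the others are called coded. Barcode runs, which were inferred from library numbers and barcodes, put CBC in a single run, PRTER in others, and WFGB and EFGB together in others again. Site and run therefore cannot be told apart for CBC and PRTER, while WFGB and EFGB share their runs. Nothing in the labels says whether natural libraries of a group came from separate colonies, so p-values measure the spread between these libraries.

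The lipoxygenase was rare. It had 1089 counts in all and was seen in 31 libraries, of which 30 were kept, and the 3 richest libraries held 53.7% of them. Of those 30, 12 had 10 counts or more and 8 had a single count.

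At PRTER the lipoxygenase had a count in 11 of 41 mesophotic libraries and in 0 of 31 shallow libraries, the contrast on which it was chosen. The 11 mesophotic libraries held 12.9, 24.9, 51.5, 72.0, 132, 140, 240.5, 251.5, 440, 487 and 524 CPM. The other 30 mesophotic libraries and all 31 shallow libraries had 0 counts, so the median was 0 at both depths and the groups overlapped at 0. The exact Clopper-Pearson 95% interval of the share detected was 14.2% to 42.9% for mesophotic and 0% to 11.2% for shallow libraries; intervals cover counting error only. The median host total was 243070 counts in mesophotic and 308986 counts in shallow libraries. The log2 difference was 1.06 ± 0.26 (SE) in the limma fit across all host isogroups, in which 0.603% of 6629 isogroups were called at this site.

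**Figure D1:**
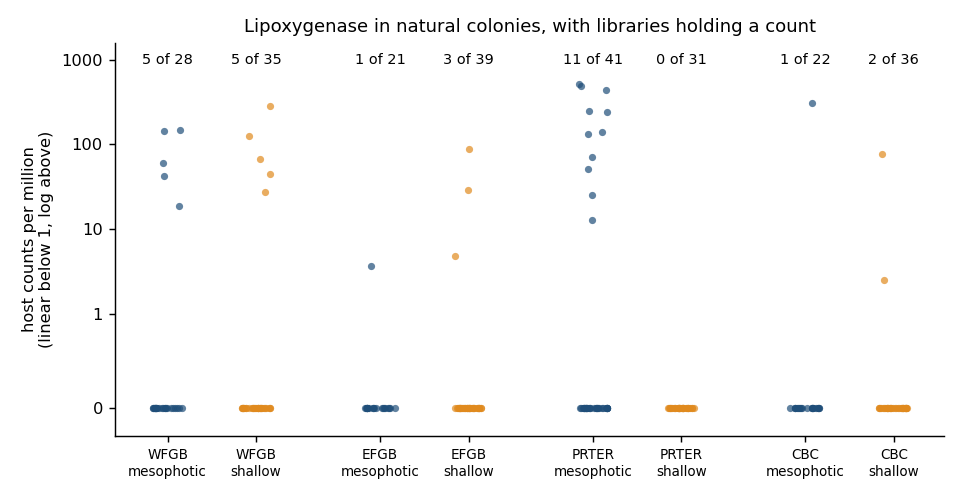
Lipoxygenase level in each natural library, in host CPM (vertical axis, linear below 1 and logarithmic above), by site and depth; blue points are mesophotic and orange points shallow libraries. The numbers on top count libraries with at least 1 count: 11 of 41 mesophotic libraries at PRTER, against 0 of 31 shallow ones, while the counts at the other sites are 5 of 28 and 5 of 35, 1 of 21 and 3 of 39, and 1 of 22 and 2 of 36.

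These detections, which the choice used, were spread over barcode runs and titles as follows. Run 2 held 8 detections in 20 mesophotic and 0 in 17 shallow libraries, and run 3 held 3 in 21 and 0 in 14. Among VIII-13 titles it was 7 of 22 and 0 of 5, and among coded titles 4 of 19 and 0 of 26. At a fixed depth of 20000 host counts the expected share of mesophotic libraries with a count was 22.1%, against 26.8% observed.

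At the 3 sites that the choice did not use, no depth difference in the lipoxygenase passed its test. At WFGB 5 of 28 mesophotic and 5 of 35 shallow libraries had a count, at 18.8, 42.7, 60.6, 145 and 149 CPM in the mesophotic and 27.8, 44.3, 67.5, 127.4 and 281.9 CPM in the shallow ones. At EFGB it was 1 of 21 and 3 of 39, at 3.69 CPM in the mesophotic and 4.83, 28.8 and 87.6 CPM in the shallow ones. At CBC it was 1 of 22 and 2 of 36, and the single mesophotic library held 312.5 CPM from 146 counts, against 2.48 and 77.1 CPM in the shallow ones. At each of these sites the groups overlapped, and Fisher's exact test on detection gave an adjusted p of 1 over the 3 sites. The mesophotic minus shallow differences in log2 level were 0.07 ± 0.31 (SE) at WFGB, -0.13 ± 0.10 at EFGB and 0.13 ± 0.25 at CBC (permutation tests, 2-sided, adjusted p = 0.819 at each). Their 95% intervals, from -0.54 to 0.69, -0.33 to 0.07 and -0.35 to 0.62, bound what these libraries can show. Within the barcode runs and title codes of WFGB and EFGB that held at least 2 libraries of each depth the lipoxygenase differences ran from -0.40 to 0.71, and none passed its permutation test. In runs 5 and 8 of WFGB and run 7 of EFGB no library had a count, so those tests could not pass. Title codes gave no call either, with an adjusted p of at least 0.792 in the 6 permutation tests of V-16 against other titles. The 2 V-16 shallow libraries of WFGB had 0 counts. With counts in so few libraries, the tests within runs and of title codes say little about a difference.

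Between the banks, the lipoxygenase had a count in 3 of 39 EFGB and 5 of 35 WFGB shallow libraries, and in 1 of 21 EFGB and 5 of 28 WFGB mesophotic libraries. The EFGB minus WFGB difference was -0.31 ± 0.23 (SE) in shallow and -0.51 ± 0.24 in mesophotic libraries (permutation tests, adjusted p = 0.176 and 0.171), so neither passed. Within shared barcode runs the differences were -0.32 and -0.46 (permutation tests within runs, adjusted p = 0.196 for both).

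In the transplant experiment the lipoxygenase had a count in 2 of the 45 libraries kept. One was a WFGB transplant at time 12 with 65 counts, or 178 CPM, and the other a WFGB shallow control at time 6 with 1 count, or 47.8 CPM. Before the experiment 1 of 7 transplant baselines, 2 of 8 mesophotic control baselines and 1 of 9 shallow control baselines had a count. None of the 6 arm comparisons passed the exact permutation test within sites (adjusted p = 1 for each, differences between -0.33 and 1.06). With counts in so few libraries these tests say little about a change.

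Cytosolic phospholipase A2 was, by contrast, present throughout. It had 636529 counts and was seen in all libraries kept but 1, a CBC shallow library. It made up a median of 0.899% of all host counts in a library and at most 5.75%.

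At CBC, the contrast on which it was chosen, the phospholipase ran from 4084 to 30661 CPM in mesophotic libraries with a median of 13564 CPM, against 0 to 19196 CPM in shallow libraries with a median of 4665 CPM. Mesophotic libraries sat at the upper end and the shallow ones spread far below them, though the groups overlapped. The log2 mean was 13.68 ± 0.78 (SD, n = 22) in mesophotic and 11.80 ± 2.13 (SD, n = 36) in shallow libraries. Mesophotic was higher by 1.89 ± 0.43 (SE) in the limma fit, in which 0.196% of 6629 isogroups were called at CBC. The fitted difference was 1.01 with edgeR and 0.65 ± 0.41 (SE) with DESeq2. CBC mesophotic and shallow libraries had 1244.5 and 1257 isogroups detected at the median. Their median host totals were 188602 and 267064 counts, and their median shares of symbiont counts 8.65% and 6.45%. Ribosomal protein L6, the most abundant host isogroup, made up 4.71% and 6.56% of host counts at the median. The part of these in the phospholipase difference was not tested.

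**Figure D2:**
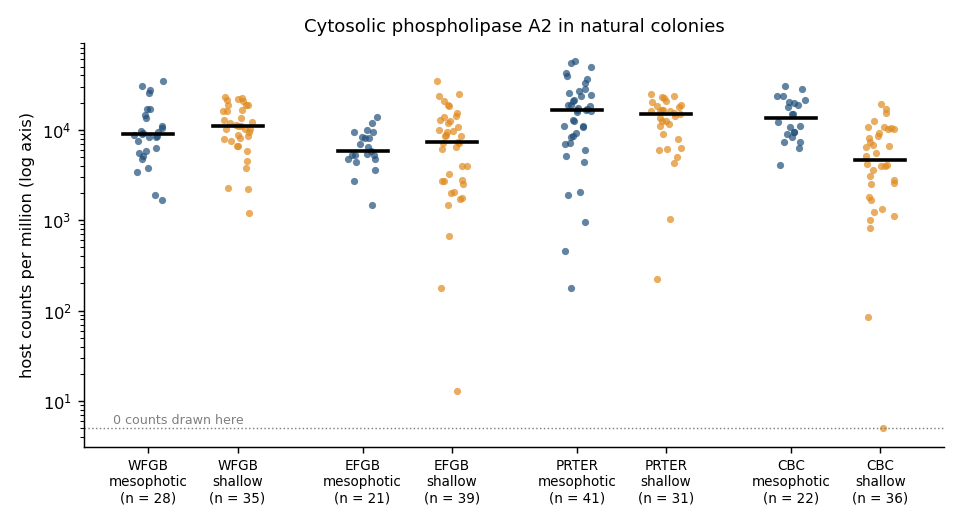
Cytosolic phospholipase A2 level in each natural library, in host CPM on a log axis, by site and depth; blue points are mesophotic, orange points shallow libraries, and bars mark medians. The CBC medians are 13564 in mesophotic and 4665 in shallow libraries, while those at PRTER are 16363 and 14841 and at every site the ranges overlap.

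At the other 3 sites no depth difference in the phospholipase passed its test. At WFGB mesophotic libraries ran from 1659 to 34483 CPM with a median of 8876 CPM, and shallow libraries from 1196 to 22893 CPM with a median of 11079.5 CPM. At EFGB mesophotic libraries ran from 1462 to 13886 CPM with a median of 5888 CPM, and shallow libraries from 12.9 to 35004 CPM with a median of 7302 CPM. At PRTER mesophotic libraries ran from 176 to 57503 CPM with a median of 16363 CPM, and shallow libraries from 223 to 24555 CPM with a median of 14841 CPM. The ranges overlapped at all 3 sites. The mesophotic minus shallow differences were -0.15 ± 0.27 (SE) at WFGB, 0.20 ± 0.36 at EFGB and 0.13 ± 0.37 at PRTER (permutation tests, 2-sided, adjusted p = 0.732 at each). Their 95% intervals ran from -0.67 to 0.37, from -0.51 to 0.91 and from -0.60 to 0.87. A test of whether these 3 sites differed among themselves gave p = 0.704 (10000 permutations of depth within sites). The share of all isogroups that limma called was 0.573% at WFGB and 16.6% at EFGB, and neither Mcavernosa22551 nor Mcavernosa04604 was among them.

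In order of their medians, the phospholipase stood highest at PRTER mesophotic, then PRTER shallow, CBC mesophotic, WFGB shallow, WFGB mesophotic, EFGB shallow, EFGB mesophotic and CBC shallow. In each step of that order the log2 means lay within the larger SD of the neighbours, whose SDs ran from 0.74 to 2.13. CBC, PRTER and the pair of WFGB and EFGB come from different barcode runs, and the part of the run in this order was not tested.

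**Figure D3:**
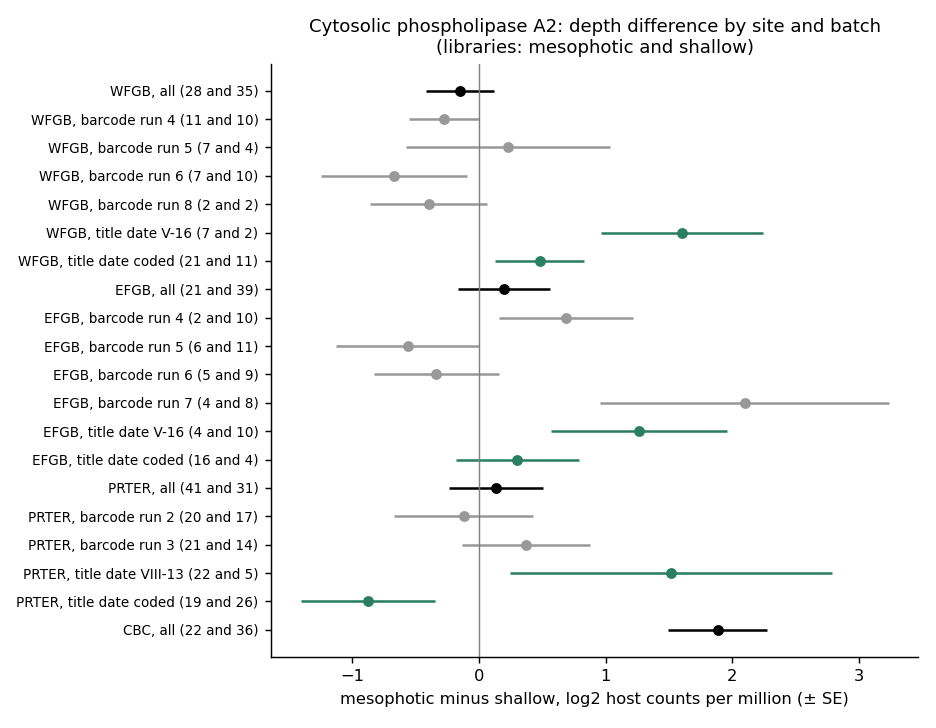
Mesophotic minus shallow difference of cytosolic phospholipase A2 in log2 host CPM (horizontal axis, bars ± SE) for each site as a whole (black), within barcode runs (grey) and within title codes (green), with the numbers of mesophotic and shallow libraries. The CBC point lies at 1.89, and the whole-site points of WFGB, EFGB and PRTER lie at -0.15, 0.20 and 0.13.

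Within barcode runs that held at least 2 libraries of each depth, the differences were -0.28, 0.23, -0.67 and -0.40 at WFGB, 0.69, -0.56, -0.34 and 2.10 at EFGB, and -0.12 and 0.37 at PRTER, and none passed its permutation test. At PRTER the VIII-13 titles gave 1.52 ± 1.27 (SE; 22 mesophotic and 5 shallow libraries) and the coded titles -0.88 ± 0.53 (19 and 26 libraries), which differ in sign. The exact permutation p was 0.0478 for VIII-13 and the permutation p 0.0739 for coded titles; adjusted over the 3 sites they were 0.143 and 0.222, and neither passed. CBC held a single run and a single title code, so no within-batch value differs from the whole.

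At WFGB and EFGB, the banks, the comparison of depths turned on which title codes were included. All X-14 libraries were shallow: 25 at EFGB and 22 at WFGB, with no mesophotic library of that code. Without them EFGB mesophotic libraries had a median of 5888 CPM (n = 21) and shallow libraries 2636 CPM (n = 14). Mesophotic was then higher by 1.33 (permutation test, adjusted p = 0.00159). At WFGB the medians without X-14 were 8876 CPM (n = 28) in mesophotic and 7456 CPM (n = 13) in shallow libraries, a difference of 0.55 that did not pass (adjusted p = 0.234). Within V-16 titles mesophotic libraries exceeded shallow ones by 1.26 ± 0.70 (SE) at EFGB, with 4 and 10 libraries (exact permutation p = 0.143), and by 1.60 ± 0.64 at WFGB, with 7 and 2 libraries (exact p = 0.167). Within coded titles the differences were 0.30 ± 0.49 (exact p = 0.44) and 0.48 ± 0.35 (permutation p = 0.176). Depth and title code were thus partly confounded, and the depth difference in X-14 colonies was not measured.

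EFGB also gave a call in 2 other settings. Among libraries with at least 100000 host counts, 13 mesophotic libraries had a median of 5888 CPM and 12 shallow ones 2634 CPM, a difference of 2.00 (permutation test, adjusted p = 0.00147). Of these 12 shallow libraries 6 had V-16 and 5 X-14 titles, against 10 and 25 of all 39 EFGB shallow libraries. This cut therefore also changed the mix of title codes, and the part of that in the difference was not tested. With the number of detected isogroups as a covariate the difference was 1.28 (adjusted p = 0.00315). EFGB mesophotic libraries had 1782 isogroups detected at the median, against 3570 in shallow libraries. With that covariate in the limma fit, the share of isogroups called at EFGB was 0.0754%, and Mcavernosa22551 was not among them.

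Shallow colonies held less of the phospholipase under V-16 titles than under X-14 titles. At EFGB V-16 libraries ran from 178 to 7095 CPM with a median of 1910 CPM (n = 10), against 12.9 to 35004 CPM with a median of 10006 CPM in X-14 libraries (n = 25). Of the X-14 libraries 1 lay below that V-16 median. The difference was -2.24 ± 0.61 (SE; permutation test, adjusted p = 0.0109 over 6 title code comparisons). At WFGB the 2 V-16 shallow libraries held 1196 and 2267 CPM, below every one of the 22 X-14 libraries, which ran from 6650 to 22893 CPM (difference -2.98 ± 0.47, exact permutation test, adjusted p = 0.0109). Against coded titles V-16 shallow libraries were lower at WFGB (-2.21 ± 0.54, exact permutation test, adjusted p = 0.0384), while at EFGB the difference of -1.65 ± 0.65 did not pass (adjusted p = 0.0623). The V-16 shallow libraries had fewer isogroups detected than X-14 ones at EFGB, 2534.5 against 4404 at the median, and at WFGB, 3613 against 4685.5. Set against coded shallow libraries they had fewer at EFGB, 2534.5 against 3528.5, but more at WFGB, 3613 against 3049. The part of this in the differences was not tested.

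Mesophotic colonies were also lower under V-16 titles at WFGB. At WFGB V-16 mesophotic libraries had a median of 5510 CPM (n = 7), against 9415 CPM in coded ones (n = 21), a log2 difference of -1.08 ± 0.49 (exact permutation test, adjusted p = 0.0372). These V-16 libraries had 2527 isogroups detected at the median, against 3860 in coded ones, with median host totals of 114617 and 51389 counts. The part of this in the difference was not tested. At EFGB the medians were 4962 CPM (n = 4) and 6742 CPM (n = 16), with a difference of -0.70 ± 0.55 that did not pass (exact permutation test, adjusted p = 0.0968). Whether the V-16 difference itself depends on depth was not tested, since the codes it is set against are not the same.

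**Figure D4:**
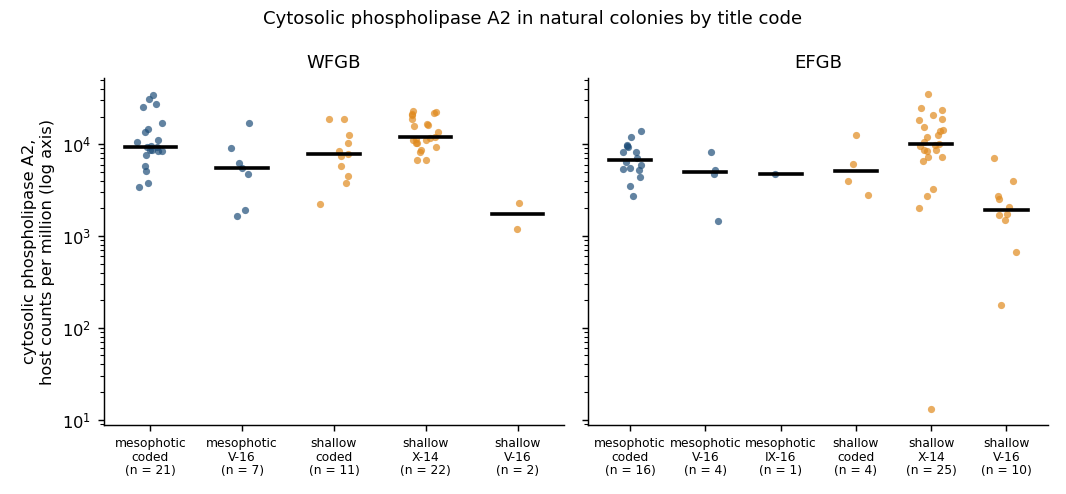
Cytosolic phospholipase A2 level in each natural library of WFGB and EFGB, in host CPM on a log axis, by depth and title code; blue points are mesophotic, orange points shallow libraries, and bars mark medians. Shallow V-16 libraries have medians of 1732 at WFGB and 1910 at EFGB, below the shallow X-14 medians of 11947 and 10006.

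The banks differed in the phospholipase among shallow colonies. EFGB shallow libraries had a median of 7302 CPM, against 11079.5 CPM at WFGB, a log2 difference of -0.90 ± 0.37 (SE; permutation test, adjusted p = 0.0314). Among mesophotic colonies the medians were 5888 CPM at EFGB and 8876 CPM at WFGB, a difference of -0.55 ± 0.26 that did not pass (adjusted p = 0.0503). Compared within the barcode runs that both banks share, the difference was -0.97 in shallow libraries (adjusted p = 0.0139), with single runs between -2.12 and 0.59, and -0.40 in mesophotic libraries (adjusted p = 0.211; permutation tests within runs, chosen after seeing the data). Within title codes the shallow difference was -0.68 ± 0.42 for X-14 (permutation p = 0.112), 0.06 ± 0.65 for V-16 (exact p = 0.955) and -0.49 ± 0.54 for coded titles (exact p = 0.389), and none of the 3 passed. The mesophotic difference was -0.28 ± 0.69 for V-16 (exact p = 0.685) and -0.67 ± 0.26 for coded titles (n = 16 at EFGB and 21 at WFGB, permutation p = 0.0181, unadjusted). EFGB had 10 V-16 libraries among its shallow ones and WFGB 2. The shallow call was lost with TMM scaling, which weights isogroups to set library totals (difference -0.82, permutation test, adjusted p = 0.0523).

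The transplant experiment, in which colonies of both banks were sampled at a baseline and at times 6 and 12, set transplants that began as mesophotic colonies against mesophotic and shallow controls. Its clearest movement of the phospholipase was in the shallow controls. Their baselines ran from 2817 to 18786 CPM with a median of 7456 CPM (n = 9). At time 6 the 5 EFGB shallow controls held 517, 1375, 1393, 1589 and 2223 CPM, and the 5 WFGB ones 11.1 (from 4 counts), 24.7 (from 7 counts), 2272, 2723 and 5647 CPM. At time 12 the 4 EFGB shallow controls held 11297, 15395, 18307 and 18941 CPM, and the 5 WFGB ones 7275, 8087, 9398, 15210 and 17426 CPM. All time 6 values lay below all time 12 values.

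Within colonies, 9 of 9 shallow controls were lower at time 6 than at their own baseline, by a mean log2 change of -3.40 ± 0.99 (SE; exact sign-flip permutation test, p = 0.00391, the smallest 9 colonies can give, adjusted p = 0.0235 over 6 changes). From time 6 to time 12 the phospholipase rose in 9 of 9 colonies, by 3.96 ± 0.85 (exact p = 0.00391, adjusted p = 0.0117 over 3 changes). At time 12 the 8 colonies with a baseline stood 0.55 ± 0.41 from it, 4 higher and 4 lower (adjusted exact p = 0.281). Leaving out each colony in turn kept the first change between -3.78 and -2.71. The number of isogroups detected in these colonies moved as well. At the median it was 3383 at baseline and 1448 at time 6, with median host totals of 52005 and 283091 counts. From time 6 to 12 it went from 1522 to 3221, with host totals of 283091 and 116697 counts. The part of this in the within-colony changes was not tested. In the limma fit of the same changes across all host isogroups, Mcavernosa22551 did not pass at time 6 (adjusted p = 0.106; 0.0267% of 7485 isogroups were called) nor from time 6 to 12 (adjusted p = 0.277; 0% of 7468 were called, and 7.15% had an unadjusted p under 0.05). It ranked 70 and 6 by p in these fits, in which the median isogroup had changes of -0.44 and 0.25.

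**Figure D5:**
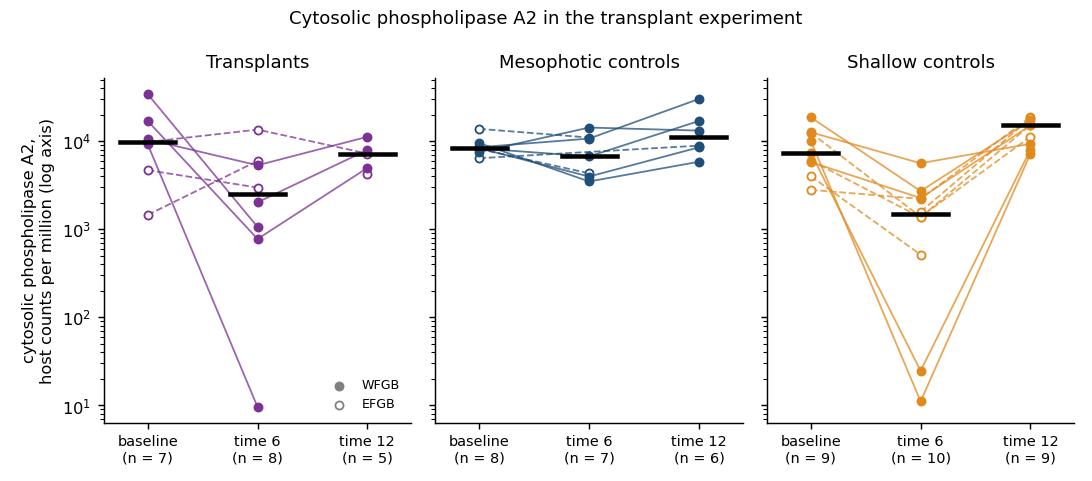
Cytosolic phospholipase A2 level at baseline, time 6 and time 12 in transplants, mesophotic controls and shallow controls, in host CPM on a log axis; points are libraries (filled for WFGB, open for EFGB), lines join libraries of the same colony and black bars mark medians. The shallow control medians are 7456 at baseline, 1491 at time 6 and 15210 at time 12, while those of mesophotic controls are 8358, 6749 and 11109.5.

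For mesophotic controls no change from baseline passed its test. Their baselines ran from 6440 to 13886 CPM (n = 8). At time 6 the 7 mesophotic controls held 3504, 3985, 6749, 10764 and 14362 CPM at WFGB and 4339 and 11063 CPM at EFGB. At time 12 they held 5874, 8564, 13266, 17066 and 30348 CPM at WFGB and 8953 CPM at EFGB. The within-colony change was -0.40 ± 0.31 (SE) at time 6, lower in 5 of 7 colonies, and 0.58 ± 0.35 at time 12, higher in 5 of 6 (exact sign-flip tests, adjusted p = 0.281 for both).

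Transplants were spread at time 6. Their baselines ran from 1462 to 34483 CPM with a median of 9836 CPM (n = 7). At time 6 the WFGB transplants held 9.58, 779, 1066, 2034 and 5353 CPM, and the EFGB ones 2991, 5998 and 13619 CPM. At time 12 they held 5004, 7999 and 11283 CPM at WFGB and 4215 and 7267 CPM at EFGB. At time 6, 4 of the 5 WFGB transplants lay below all 3 EFGB ones. Of the EFGB transplants, 2 of the 3 labelled time 6 carry IX-16 in their titles, the code that time 12 libraries carry, where every other time 6 library carries V-16. The baselines of those 2 colonies carry V-16, where all other baselines have coded titles. The within-colony change at time 6 was -2.50 ± 1.43 (SE), lower in 5 of 7 colonies (exact sign-flip test, adjusted p = 0.281), and did not pass; without those 2 colonies it was -3.78 (adjusted exact p = 0.281).

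Set side by side at time 6, mesophotic controls exceeded shallow controls by a site-adjusted log2 difference of 3.32 ± 1.11 (SE; exact permutation test within sites, adjusted p = 0.00454 over 6 arm comparisons; n = 7 and 10). At EFGB both mesophotic controls lay above all 5 shallow ones, and at WFGB the ranges overlapped in 1 shallow control of 5647 CPM. The difference was 3.84 at WFGB and 2.42 at EFGB. It stayed between 2.59 and 3.83 when each library was left out in turn, but with detected isogroups as the covariate it was 2.83 and no longer passed (permutation test, adjusted p = 0.0699). Shallow controls at time 6 had 1485 isogroups detected at the median, against 2684 in mesophotic controls. Limma called 0% of 6715 isogroups in this comparison, with 4.81% at an unadjusted p under 0.05, and Mcavernosa22551, which ranked 3 of them by p, had an adjusted p of 0.542.

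The change from baseline to time 6 differed between mesophotic and shallow controls by 3.20 on the log2 scale (exact permutation test within sites, adjusted p = 0.0334 over 6 differences of change; -0.40 in 7 mesophotic and -3.40 in 9 shallow colonies). For transplants against mesophotic controls that difference of changes was -2.50 (adjusted p = 0.129), and for transplants against shallow controls 0.96 (adjusted p = 0.505); neither passed. The change from time 6 to 12 differed by -3.59 between mesophotic and shallow controls, which did not pass (adjusted p = 0.119).

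Between transplants and mesophotic controls at time 6 the log2 difference was -2.26 ± 1.09 (SE; exact permutation test, adjusted p = 0.05, at the threshold and not under it; n = 8 and 7). The difference was -3.27 at WFGB and -0.15 at EFGB, and -2.38 without the 2 EFGB transplants titled IX-16 (adjusted exact p = 0.0979). It passed when 1 of 3 libraries was left out, a WFGB or an EFGB transplant or an EFGB mesophotic control. Limma called 0% of 6715 isogroups there too, with 4.04% at an unadjusted p under 0.05, and gave Mcavernosa22551 an adjusted p of 1.00. Transplants and shallow controls at time 6 differed by 1.30 ± 1.27 (adjusted exact p = 0.366). At time 12 transplants were lower than shallow controls, with a log2 difference of -0.91 ± 0.31 (exact permutation test, adjusted p = 0.0429; n = 5 and 9), with values of 4215 to 11283 CPM against 7275 to 18941 CPM, so the groups overlapped. That call was lost when any of 9 of the 14 libraries was left out, with differences between -1.12 and -0.68, and in the limma fit, which called 0.0149% of 6715 isogroups (Mcavernosa22551, adjusted p = 0.762) and had a median isogroup difference of -0.43. With detected isogroups as the covariate it was lost as well. Transplants at time 12 had 1633 isogroups detected at the median, against 3221 in shallow controls. Their median host totals were 390284 and 116697 counts, and their median symbiont shares 0.55% and 8.71%. The part of these in the difference was not tested. At time 12 transplants and mesophotic controls differed by -0.73 ± 0.46 (adjusted exact p = 0.206), and mesophotic and shallow controls by -0.01 ± 0.38 (adjusted exact p = 0.984).

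Time label and title code moved together: time 6 libraries carry V-16 titles, apart from the 2 EFGB transplants named above, and time 12 libraries IX-16. The natural shallow libraries with V-16 titles at EFGB, with a median of 1910 CPM, sat near the EFGB shallow controls at time 6, with a median of 1393 CPM. In bulk libraries fewer cells of a type and less RNA per cell cannot be told apart. In marker lists matched by gene name, the summed level of 15 neuron isogroups ran from 0 to 669 CPM with a median of 12.5 CPM in shallow controls at time 6, and from 57.6 to 1038 CPM with a median of 446 CPM in their baselines. In mesophotic controls at time 6 it ran from 1.02 to 1293 CPM with a median of 363 CPM. In transplants at time 6 it ran from 0 to 738 CPM with a median of 13.2 CPM, so the low median was not particular to shallow controls. The mucus and gland list of 33 isogroups had medians of 1716 CPM in shallow controls at time 6, 802 CPM in their baselines and 636 CPM in mesophotic controls at time 6. The germ line list of 24 isogroups had 990, 2302 and 968 CPM in these groups. Both nematocyte isogroups in the table were at 0 in all shallow and mesophotic controls at times 6 and 12. They were also at 0 in all mesophotic control baselines, and shallow control baselines had a median of 0 and at most 18.7 CPM. The part of cell makeup in the phospholipase values was not tested. Ribosomal protein L6, the most abundant host isogroup, made up 9.22% of host counts at the median in shallow controls at time 6. It made up 3.32% in mesophotic controls at time 6 and 2.27% in shallow control baselines. Leaving it out of the library totals changed no call on the within-colony changes of the phospholipase. Leaving out a share of this size could hardly have changed a call, so that outcome says little. The part of library makeup in the changes was not tested.

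Other isogroups carry the same names, and tags of close copies may be split between them. Of host isogroups, 8 are named lipoxygenase, and Mcavernosa04604 held 17.2% of their counts. Of the other 7, only Mcavernosa01491 was seen often enough to test; its depth differences, 0.14 ± 0.39 (SE) at WFGB, -0.46 ± 0.42 at EFGB, 0.15 ± 0.37 at PRTER and -0.25 ± 0.42 at CBC, did not pass in limma. At PRTER it had a count in 15 of 41 mesophotic and 8 of 31 shallow libraries. Among 7 isogroups with the phospholipase's name, Mcavernosa22551 held 98.5% of the counts. Mcavernosa09570 and Mcavernosa29568, of the same name, were lower in EFGB mesophotic than EFGB shallow libraries, with log2 differences of -1.61 ± 0.51 and -1.35 ± 0.49 (SE; limma, adjusted p = 0.0231 and 0.0423), and were detected in 17 and 4 of 21 mesophotic libraries, against 36 and 17 of 39 shallow ones. Limma called 16% of all 6629 isogroups as lower there, with a median difference of -0.46 over all. With the number of detected isogroups as a covariate neither was called at EFGB. Mcavernosa09570 had mean changes in shallow controls of -2.73 ± 0.93 from baseline to time 6 and 2.08 ± 0.74 from time 6 to 12, and neither passed across all isogroups (limma, adjusted p = 0.197 and 0.627).

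The wider eicosanoid pathway was read from a list of 99 host isogroups by gene name, of which 69 were in the table. Besides the members, 34 were detected often enough to test by depth. At EFGB 0 were higher and 10 lower in mesophotic libraries, where limma called 16.6% of all 6629 isogroups tested and 16% of them as lower; the list's median difference was -0.48, against -0.46 for all. At WFGB 0 were higher and 1 lower, where 0.513% of all were called lower, with a median of -0.22 against -0.24 for all. At PRTER and CBC none was called in the limma fit, with medians of 0.09 against 0.08 for all at PRTER and 0.15 against 0.09 at CBC; of 17 tested by edgeR and DESeq2, edgeR called 1 higher and 1 lower at PRTER, 2 higher at CBC, 1 lower at EFGB and none at WFGB. Of all isogroups edgeR called 20.4% at PRTER, 28.3% at CBC, 8.75% at EFGB and 2.75% at WFGB. DESeq2 called 1 higher and 1 lower at PRTER and at EFGB, 2 higher and 1 lower at CBC and none at WFGB, against 19.9%, 14.9%, 25.5% and 5.75% of all isogroups in that order of sites. With the number of detected isogroups as a covariate none of the 34 was called at any site, and the EFGB median was -0.09 against -0.11 for all.

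The counts by role at EFGB stand beside the 16% of all isogroups called lower there, and the roles hold few members each. In fatty acid release 3 of 10 were lower in EFGB mesophotic libraries. Besides the pair of phospholipases above these included the phospholipase A-2-activating protein Mcavernosa02775, which in yeast and mammals acts in ubiquitin-dependent protein breakdown; it was detected in 6 of 21 mesophotic and 25 of 39 shallow libraries (-1.08 ± 0.30, limma, adjusted p = 0.0127). Of 7 isogroups in oxidation, 1 was lower, Mcavernosa02587, whose deposited name ends after "Arachidonate", seen in 3 of 21 mesophotic and 17 of 39 shallow libraries (-1.02 ± 0.33, adjusted p = 0.0236). None of 3 in conversion was called.

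In removal, 2 of 3 were lower. They were microsomal epoxide hydrolase 1, Mcavernosa04394, which opens epoxides (-0.90 ± 0.31, limma, adjusted p = 0.0345), and a fatty acid amide hydrolase-like isogroup, Mcavernosa13719, whose mammalian namesake breaks down fatty acid amides (-0.90 ± 0.32, adjusted p = 0.0392). In supply, 1 of 4 was lower, the fatty acid desaturase Mcavernosa25174, which puts double bonds into fatty acids. It was detected in 1 of 21 EFGB mesophotic and 17 of 39 EFGB shallow libraries (-0.81 ± 0.25, adjusted p = 0.0206), and in 10 of 28 WFGB mesophotic and 26 of 35 WFGB shallow libraries (-0.91 ± 0.24, adjusted p = 0.0305).

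In binding, 3 of 7 were lower at EFGB. Of these, 2 were annexin A11 isogroups, Mcavernosa17546 and Mcavernosa32037, calcium-dependent membrane binders that entered the list by the letters of annexin A1 (-1.30 ± 0.42 and -1.61 ± 0.59, limma, adjusted p = 0.0254 and 0.0441). The other, Mcavernosa32200, is named for lipoxygenase homology domains and shares a lipid-binding fold with lipoxygenases without being one (-1.51 ± 0.51, adjusted p = 0.0304).

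Of the list members not called, those with the smallest p at a site were Mcavernosa27976, a secreted type group IIE phospholipase A2, at PRTER (-0.53 ± 0.20, limma, adjusted p = 0.298, 6 of 41 mesophotic and 8 of 31 shallow libraries), its namesake Mcavernosa05389 at WFGB (0.40 ± 0.19, adjusted p = 0.310) and the fatty acid desaturase Mcavernosa29523 at CBC and EFGB (0.63 ± 0.37 and -0.94 ± 0.37, adjusted p = 0.945 and 0.0588). Within the transplant experiment limma called none of the list, whose tested members numbered 32 in each arm comparison. In shallow controls from baseline to time 6 the 35 tested had a median change of -0.51, against -0.44 for all isogroups.

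The members' levels were hardly related. Over the natural libraries of all 8 groups of site and depth the Pearson correlation of their log2 levels was 0.07, across libraries that share sites and inferred barcode runs. Among PRTER mesophotic libraries the phospholipase had a median of 15831 CPM in the 11 with a lipoxygenase count and 17099 CPM in the 30 without one. These subsets had medians of 310667 and 200984 host counts, and of 1939 and 1697.5 detected isogroups.

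Among 5074 named host isogroups detected in at least 10% of the natural libraries, those whose level followed the phospholipase most closely were a zinc finger protein (Mcavernosa05611, Pearson r = 0.47 over the same natural libraries), an interferon regulatory factor 2 binding protein (Mcavernosa07301, 0.45), heat shock 70kDa protein 8 (Mcavernosa26321, 0.44), an anoctamin (Mcavernosa25596, 0.42) and optic atrophy 3 (Mcavernosa17867, 0.40). Heat shock 70kDa protein 8 is a constitutive chaperone, and anoctamins are membrane channels or lipid scramblases. At the other end stood ribosomal protein L6 (Mcavernosa17045, r = -0.31), as a description across libraries that share runs and depth. For the lipoxygenase the closest were agmatinase (Mcavernosa18031, r = 0.29), a Kv channel interacting protein (Mcavernosa09403, 0.27), a CDP-alcohol phosphatidyltransferase (Mcavernosa24625, 0.26), membrane protein, palmitoylated (Mcavernosa26225, 0.26) and FtsJ RNA methyltransferase homolog 1 (Mcavernosa12792, 0.25). The lipoxygenase values are weak and rest on counts that are mostly 0. Both rankings include the libraries of the contrasts on which the members were chosen, so they are descriptions only.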

How the data were processed

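Reads were turned into counts per isogroup by the authors; the deposited values are raw counts of tags, in whole numbers. Their aligner and reference build were not given in the sources used here; per the labels' protocols, the authors refer to a repository of tag-sequencing scripts. The deposited names file pairs isogroups with gene names; of 17901 host isogroups 12005 have one. Groups came from the labels. From the counts, 13 libraries under 20000 host counts were left out, host CPM was computed, and log2 values used a prior count of 2 scaled to library size. No 2 libraries held identical host counts. Depth and arm fits across all isogroups used limma 3.58.1 (trend, robust) on isogroups with a count in 10% of libraries or more, and used edgeR 4.0.16 (quasi-likelihood, TMM) and DESeq2 1.42.0 as alternatives (R 4.3.3); the lipoxygenase failed edgeR's count filter. Single members were tested by permutation in Python 3.11.15: 100000 resamples, or every arrangement where a group had under 10 libraries, arms within sites, and sign flips for within-colony changes. P-values were adjusted by Benjamini-Hochberg, per member, over 3 sites, 2 depths, 6 arm comparisons or 6 changes from baseline, with 0.05 as the threshold. The tests were tested on simulated data. The members and lists were chosen with earlier results of these data known, so none of them is independent of the data. The pathway list was matched by words in the gene names. Named from it were members called by limma at any site and, of the rest, the one with the smallest p per site; for each member, the 5 isogroups of highest correlation were named. Alternatives were scaling, prior count, minimum counts, title codes, barcode runs, a detected-isogroup covariate and leaving out libraries.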

Additional observations from a re-analysis of the deposited data

Results flagged for a closer look

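One WFGB shallow control at time 6 stood apart from the other 4 in the lipoxygenase, with 47.8 CPM against 0 in the rest; this is a single count in a library of 20931 host counts, and chance flags about 1 in 20 groups. The change of cytosolic phospholipase A2 from baseline to time 6 differed between mesophotic and shallow controls by 3.20 on the log2 scale in an exact permutation test of that difference (adjusted p = 0.0334; mean changes of -0.40 in 7 mesophotic and -3.40 in 9 shallow control colonies). In the symbiont part of the table, which the comparisons above do not use, an isogroup named phospholipase A2, group IVD (Cladocopium206914) had 146 counts in 11 libraries.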

How the results depend on the processing

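Of the values recomputed under alternative settings, 457 kept their direction and their side of the threshold, or, for shares of isogroups called, stayed within 1.5 times; 17 lost a call, 7 gained one, 30 turned in sign and 15 moved further. By replicate number no paired analysis was possible because these numbers follow the order of accession; the changes within colonies, paired by the tags in the titles, are the paired tests run. The cause of the changes below was not tested. For the lipoxygenase, the sign turned at CBC without its richest library (-0.10), at WFGB without baselines (-0.17), at EFGB in coded titles (0.030), in detection at CBC at a fixed depth (2.19 percentage points) and in the shallow control change at time 6, which ran from -0.62 to 0.33 with each colony left out. For the phospholipase by depth, PRTER turned to -0.13 with TMM factors, -0.12 in barcode run 2, -0.88 in coded titles, -0.087 with edgeR and -0.52 with DESeq2. WFGB turned to 0.017 with no minimum, 0.55 without X-14, 0.48 in coded and 1.60 in V-16 titles, 0.14 with the isogroup covariate, 0.23 in barcode run 5, 0.37 with edgeR and 0.95 with DESeq2. EFGB turned to -0.56 in barcode run 5 and -0.34 in run 6, and passed at 2.00 (at least 100000 counts), 1.33 (without X-14) and 1.28 (isogroup covariate). Between banks, the shallow call was lost with TMM (-0.82) and the mesophotic one gained with no minimum (-0.69). Among arms, transplant minus shallow control at time 12 was lost with no minimum (-0.57), the isogroup covariate (-0.84), limma (-0.88) and in the leave-one-out range of -1.12 to -0.68. Mesophotic minus shallow control lost its time 6 call with the covariate (2.83) and limma (3.33), and at time 12 turned to 0.0073 with the covariate, 0.19 with limma and ran from -0.26 to 0.25 with each library left out. Transplant minus mesophotic control at time 6 ran from -2.70 to -1.33 with each library left out, and passed in 3 of those fits. The shallow control changes lost their calls in limma at time 6 (-3.40) and from time 6 to 12 (3.96). The percentage of isogroups called by edgeR, DESeq2, edgeR with RLE scaling and limma without the filter was 2.75, 5.75, 0.108 and 0.349 at WFGB (0.573 in the limma fit used). At EFGB it was 8.75, 14.9, 4.43 and 3.08 (16.6), at PRTER 20.4, 19.9, 15.1 and 0.12 (0.603), and for CBC 28.3, 25.5, 17.2 and 0.0572 (0.196). In PRTER shallow libraries, with 0 counts of the lipoxygenase, 3 counts of their summed host total would be 0.297 CPM.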

Other observations

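An isogroup of the symbiont named lipoxygenase (Cladocopium263292) had 3 counts in 3 libraries, which is the limit that a count of 0 allows. A symbiont phospholipase A2-activating protein (Cladocopium181482) had 52 counts in 2 libraries.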
